A study of Homo sapiens with 6 samples.

Results

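Expression of 9 genes that interferon is known to induce was followed in PANC-1, a cell line from a human carcinoma of the pancreatic duct, with and without knockdown of the receptor kinase STYK1. They belong to the 995 genes in the expression table and were found by gene symbol: IFIT1, IFIT2, IFIT3, IFITM2, IFI16, PARP9, PARP14, PLSCR1 and LGALS3BP. Poly(A) RNA was sequenced from 3 control and 3 shSTYK1 libraries, the latter from cells that stably carry a lentiviral shRNA against STYK1, and per the study's methods the replicates are biological. The labels give no age, treatment or time and do not say which construct the control cells carried. The methods describe drug-resistant clones that were isolated and expanded, without stating how many entered sequencing or which STYK1 shRNA they held. With 1 knockdown group, the response to a lentiviral shRNA and the loss of STYK1 cannot be told apart.

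The table has as many genes as the study called differentially expressed between control and shSTYK1 cells, and the 9 genes were chosen from it by their annotation and by how they moved in that same comparison. Their differences are therefore given as a description without a test. STYK1 is not among the 995 genes and its knockdown was not analysed here. The deposited values are z-scores, and the expression values behind them were recovered arithmetically for 994 genes. Their unit is not stated, so levels were compared between libraries and not between genes, and the depth is unknown. Each gene's value + 1 is fixed only up to a common whole-number factor, of which the smallest was taken. Differences on the log2(value + 1) scale do not depend on that factor, whereas the values themselves, their ratios and a value of 0 do. Of 9 epithelial and ductal markers only CDH1 is in the table, of 5 mesenchymal markers only CDH2, and of 8 immune and endothelial markers none, so the cell type label could not be checked further. CDH1, the epithelial cadherin, was at 0.10, 0.27 and 0.28 in control and 0.94, 0.85 and 0.90 in shSTYK1 libraries. CDH2, the neural cadherin, was at 22.84, 23.12 and 24.81 in control and 2.98, 2.58 and 3.05 in shSTYK1 libraries. Both cadherins thus moved with the groups, CDH1 up and CDH2 down, and the part of such a shift in the values of the 9 genes was not tested.

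Interferons are secreted when a cell senses foreign or misplaced nucleic acid. Their receptors activate transcription factors that bind a short promoter element, the interferon-stimulated response element (ISRE), in a large set of antiviral genes. The IFIT proteins bind RNA, IFITM proteins hinder virus entry at membranes, and IFI16 senses DNA. PARP9 and PARP14 belong to the ADP-ribosyltransferase family, PLSCR1 moves phospholipids across membranes, and LGALS3BP is a secreted glycoprotein that binds galectins.

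The ISRE core was looked for in promoter windows from RefSeq (GRCh38.p14), which span 250 bases before to 50 bases after a gene's start. Windows were held for 7 of the 9 genes, all but IFIT2 and IFITM2. The letters searched were GAAANNGAAA on both strands. Of the 7, 6 had a match in at least 1 window, namely IFIT1, IFIT3, PARP9, PARP14, PLSCR1 and LGALS3BP. Among all 27305 genes with a window, 4.38% had one. The share was 6.08% of 329 table genes that were higher in shSTYK1 cells and 6.94% of 360 that were lower. The 6 genes named here are themselves among the 20 higher table genes with a match. Of the other interferon list genes in the table, 5 had a window and 1 of these, DTX3L, had a match. It lies on the same bases as the match of PARP9, so it is not a further element. The sequences are shown because they are the element that these promoters share with each other. Capitals mark the matches, which read as TTTC repeats where they lie on the other strand, and each line runs 5′ to 3′ along the gene:
IFIT1: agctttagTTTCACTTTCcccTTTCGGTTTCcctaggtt
IFIT3: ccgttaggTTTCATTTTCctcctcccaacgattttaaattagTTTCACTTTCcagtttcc
PARP9: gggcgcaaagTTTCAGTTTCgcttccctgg
PARP14: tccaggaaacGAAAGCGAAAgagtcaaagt
PLSCR1: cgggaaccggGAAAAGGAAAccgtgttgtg
LGALS3BP: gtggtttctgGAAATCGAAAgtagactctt

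These stretches lie at chr10:89392499-89392537 (plus strand) for IFIT1 and chr10:89327833-89327892 (plus strand) for IFIT3. The other 4 are at chr3:122564322-122564351 (minus strand) for PARP9, chr3:122680800-122680829 (plus strand) for PARP14, chr3:146544667-146544696 (minus strand) for PLSCR1 and chr17:78979962-78979991 (minus strand) for LGALS3BP. Distances are counted from the RefSeq start of each window, which can differ from the GENCODE start given with each gene. IFIT1 carried 2 matches, whose first bases were 116 and 103 bases before its RefSeq start. IFIT3 also carried 2 in the window shown, at 156 and 122 bases before the RefSeq start, and 2 more in the window of a second start. In PARP14 the match began 29 bases before the RefSeq start. The stretches shown for PARP14, PARP9, PLSCR1 and LGALS3BP lie inside the longer spans that GENCODE 29 gives these genes. IFI16 had no match to these letters in either of its 2 windows. These windows lie at chr1:159008741-159009040 and chr1:159009657-159009956, inside the span that GENCODE 29 gives IFI16, which starts at chr1:158999968. The bases around that GENCODE start were not searched. The element TTCNNNGAA, the gamma-activated site of interferon-responsive promoters, was found for 2 of the 7 genes, PARP14 and PLSCR1. Over all 35116 windows, 7.66% held it. That share counts windows and not genes, and a gene can have several windows, so it is not a like measure. The matches describe letters in these windows, and binding was not measured.

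IFIT1 (ENSG00000185745, plus strand, chr10:89392546-89406486, GRCh38), whose protein binds RNA that lacks the host's cap methylation, had recovered values of 7.73, 8.48 and 8.53 in the control libraries. They reached 26.28, 22.17 and 28.23 in the shSTYK1 libraries. The controls lay close together and every shSTYK1 library was at least 2.6 times the highest control. The means were 8.25 ± 0.448 and 25.6 ± 3.09 (SD, n = 3 each), a difference of 1.52 ± 0.13 (SE) on the log2(value + 1) scale.

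IFIT2 (ENSG00000119922, plus strand, chr10:89283694-89309276), whose product binds AU-rich RNA, had values of 3.54, 3.20 and 5.73 in control and 23.19, 20.28 and 23.93 in shSTYK1 libraries. Control replicate 3 stood above the other two controls, and the shSTYK1 libraries lay far above all of them. The mean was 4.16 ± 1.37 in control and 22.5 ± 1.93 in shSTYK1 cells (SD, n = 3 each). The log2 fold change of 2.21 ± 0.19 (SE) was the largest of the 9 genes, and leaving out any 1 library gave between 2.08 and 2.42.

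IFIT3 (ENSG00000119917, plus strand, chr10:89327894-89340971), which stabilises IFIT1 in a complex, was at 2.44, 2.83 and 2.41 in control libraries. It was at 10.90, 7.90 and 9.79 in the shSTYK1 libraries. The groups were well apart, with the widest spread among the shSTYK1 libraries, and replicate 2 was the lowest of them. The means were 2.56 ± 0.234 and 9.53 ± 1.52 (SD, n = 3 each), and the log2 fold change was 1.56 ± 0.15 (SE). On the log2(value + 1) scale IFIT1 and IFIT3 differed in fold change by less than either standard error, whereas IFIT2 lay above both by more than its own. With a pseudocount of 0.1 IFIT1 was at 1.61 and IFIT3 at 1.85, so their likeness depends on the scale.

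**Figure D1:**
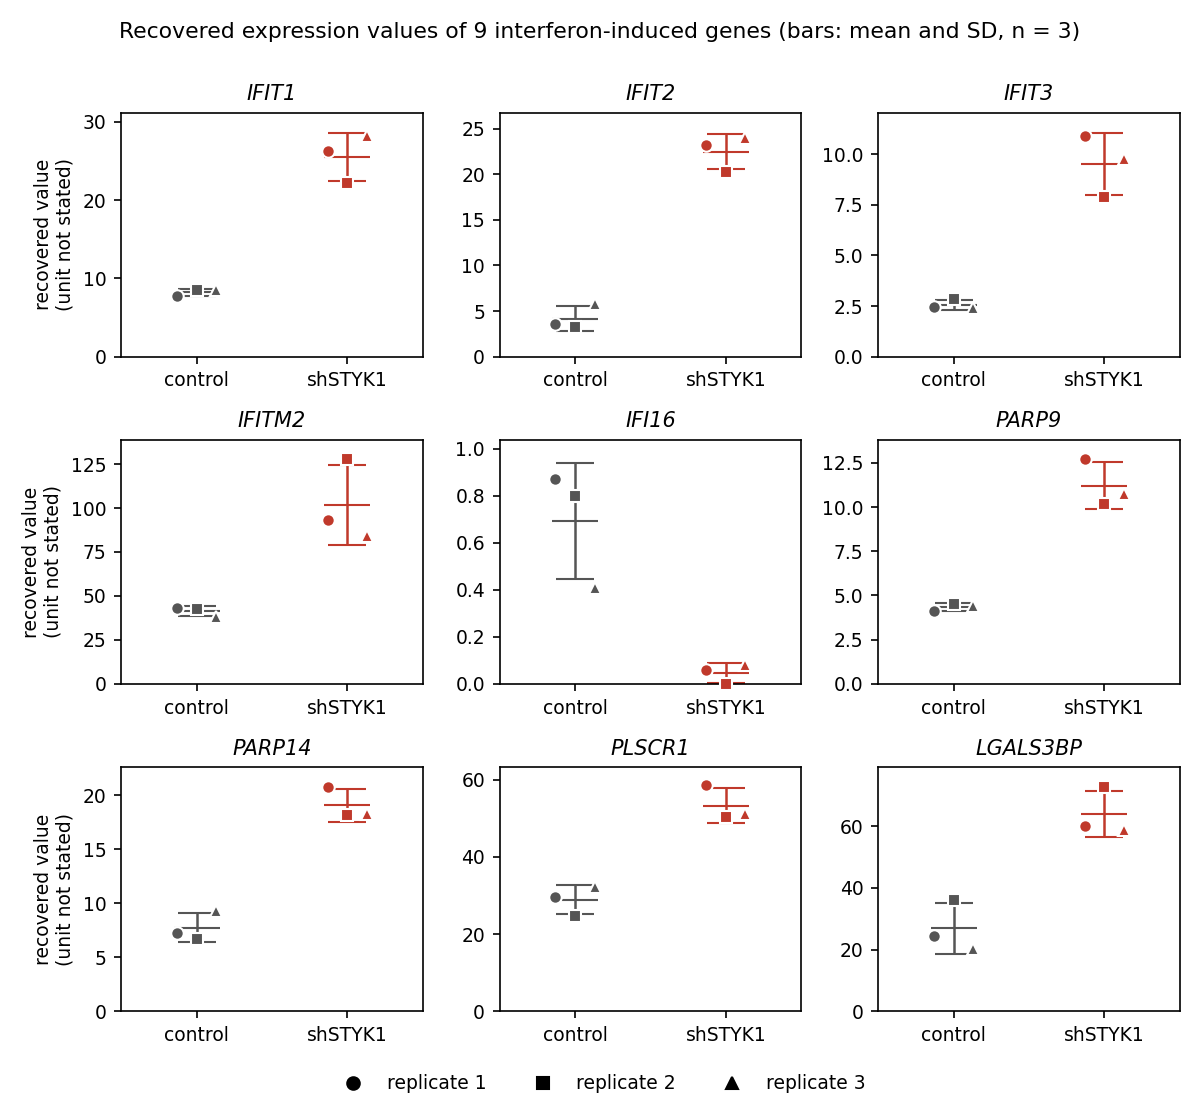
Recovered expression value (vertical axis, unit not stated, from 0) of each of the 9 genes in 3 control and 3 shSTYK1 libraries. Symbols are replicates and bars the mean and SD (n = 3). The shSTYK1 libraries lie above every control library in 8 genes and below every control library in IFI16, where they sit between 0 and 0.08.

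The 3 IFIT genes lie side by side on chromosome 10 inside the annotated span of LIPA (chr10:89213569-89414557), which encodes lysosomal acid lipase on the opposite strand. LIPA was at 51.37, 43.19 and 56.86 in control libraries, against 219.65, 173.15 and 217.75 in shSTYK1 libraries, a log2 fold change of 1.99 ± 0.16 (SE). ENSG00000232110, a noncoding gene that lies on the strand of IFIT2 and wholly within its annotated span, was at 23.31, 20.08 and 26.59 in control libraries, against 145.47, 128.91 and 146.59 in shSTYK1 libraries (log2 fold change 2.54 ± 0.14, SE). All 5 table genes whose starts lie within 500000 bases of LIPA were thus higher in shSTYK1 cells. GENCODE 29 transcripts of IFIT2 share 207 of their 4096 distinct stretches of 150 bases, a read length, with ENSG00000232110. Those of IFIT1 and IFIT3 share none with any other gene on either strand. The library protocol in the labels names no strand-marking step, so reads of LIPA and of the IFIT genes cannot be told apart by strand where they overlap. The part of LIPA in the IFIT values was not tested.

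PARP9 (ENSG00000138496, minus strand, chr3:122527924-122564577) works as a partner of the ubiquitin ligase DTX3L, with which it shares a start region. Its values were 4.10, 4.53 and 4.40 in control and 12.70, 10.15 and 10.74 in shSTYK1 libraries. The control libraries were nearly equal, and the lowest shSTYK1 library was 2.24 times the highest control. The means were 4.34 ± 0.221 and 11.2 ± 1.33 (SD, n = 3 each), a log2 fold change of 1.19 ± 0.13 (SE). Its pooled replicate SD of 0.12 on the log2 scale was the smallest of the 9 and compares with a median of 0.20 over the 740 genes tested.

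PARP14 (ENSG00000173193, plus strand, chr3:122680618-122730840), which attaches single ADP-ribose units to proteins, had values of 7.29, 6.72 and 9.25 in control and 20.81, 18.17 and 18.25 in shSTYK1 libraries. The groups were separate, and control replicate 3 was the highest control, as it was for IFIT2. The means were 7.75 ± 1.33 and 19.1 ± 1.5 (SD, n = 3 each). The log2 fold change of 1.21 ± 0.15 (SE) differed from that of PARP9 by less than the standard error of either. DTX3L (ENSG00000163840), divergent from PARP9 with 340 annotated bases in common, moved alongside them. It was at 5.46, 5.42 and 6.15 in control libraries, against 17.01, 13.16 and 16.75 in shSTYK1 libraries (log2 fold change 1.31 ± 0.14, SE).

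PLSCR1 (ENSG00000188313, minus strand, chr3:146515180-146544864) had values of 29.71, 24.78 and 32.27 in control and 58.52, 50.33 and 51.01 in shSTYK1 libraries. The lowest shSTYK1 library was 1.56 times the highest control. This ratio was the smallest among those of the 9 genes that were higher in shSTYK1 cells. The means were 28.9 ± 3.81 and 53.3 ± 4.54 (SD, n = 3 each), a log2 fold change of 0.86 ± 0.14 (SE). Median-of-ratios rescaling brought this to 0.47, and quantile normalization to 0.57.

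PARP9, PARP14 and PLSCR1 share the long arm of chromosome 3. Of 32 table genes that start between 120 and 150 Mb on this chromosome, these 3 included, 31 were higher in shSTYK1 cells, with a median log2 fold change of 1.00. Over all 994 recovered genes, 495 were higher. DTX3L, PLSCR4 and SLC49A4, which are described in other paragraphs, also start in this window. PARP9 and PARP14 lay above that median and PLSCR1 below it. The window was set after the values were known. The part of the region in the values of these 3 genes and of DTX3L, PLSCR4 and SLC49A4 was not tested.

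IFITM2 (ENSG00000185201, plus strand, chr11:307631-315272), which restricts viruses that enter through endosomes, was at 43.37, 42.53 and 38.01 in control libraries, against 93.43, 127.57 and 84.33 in shSTYK1 libraries. The shSTYK1 libraries were spread widely, with replicate 2 the highest, and all were above the controls. The means were 41.3 ± 2.88 and 102 ± 22.8 (SD, n = 3 each), a log2 fold change of 1.26 ± 0.17 (SE). Its transcripts share 214 of 1392 stretches of 150 bases (15.4%) with IFITM1, which overlaps its annotated end and was not analysed here, so the division of reads between them is uncertain.

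LGALS3BP (ENSG00000108679, minus strand, chr17:78971238-78980109) had values of 24.54, 36.17 and 20.19 in control and 60.23, 72.66 and 58.95 in shSTYK1 libraries. Its controls varied most of the 9 genes on the log2 scale (SD 0.41), and the groups still did not overlap. The means were 27.0 ± 8.26 and 64.0 ± 7.57 (SD, n = 3 each), a log2 fold change of 1.25 ± 0.21 (SE). Control replicate 2 and shSTYK1 replicate 2 were each the highest of their group.

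IFI16 (ENSG00000163565, plus strand, chr1:158999968-159055155), a sensor of DNA from viruses and damaged cells in the PYHIN family, was the member that moved the other way. Control libraries held 0.87, 0.80 and 0.41. The shSTYK1 libraries held 0.06, 0 and 0.08. The groups did not overlap, but all 6 values lay below the minimum of 1 in 3 libraries that a gene needed to enter the fit. On the log2(value + 1) scale, which compresses differences between such low values, the log2 fold change was -0.68 ± 0.13 (SE). With a pseudocount of 0.1 it was -2.42, and with quantile normalization -0.42, so its direction was kept and its size depended on the scale. The other 3 PYHIN genes, AIM2, MNDA and PYHIN1, are not among the genes of the table.

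**Figure D2:**
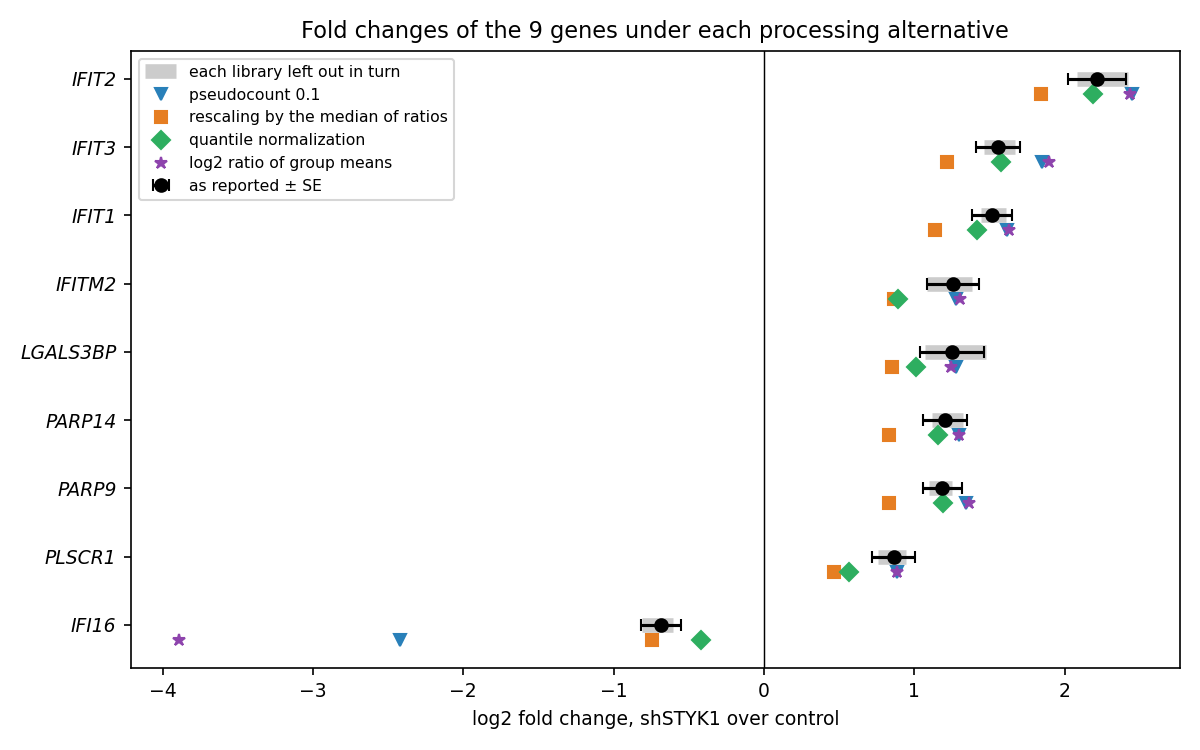
Log2 fold change of shSTYK1 over control (horizontal axis) for the 9 genes, one per line. Black points and bars are the reported value and its SE, grey bands the range when each library is left out, and coloured symbols other processing. All values stay on their side of 0, and IFI16 spans from -3.89 to -0.42.

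In all 9 genes the groups did not overlap, 8 with shSTYK1 higher and 1 with shSTYK1 lower. Over the 995 genes of the table, 45.5% were separate with shSTYK1 higher and 48.1% with shSTYK1 lower, in a table of genes called on this comparison. The 8 genes that passed the filter each had a Benjamini-Hochberg adjusted p-value under 0.05 in limma with shSTYK1 higher, as did 51.2% of the 740 genes tested, while 44.5% had one with shSTYK1 lower. Because the genes were taken from this contrast, nothing is read from these counts. The median log2 fold change was 1.25 over the 9 genes and -0.10 over the 994 recovered genes.

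Seen by library, the members did not rise and fall as 1 block. In the shSTYK1 group replicate 2 was the lowest for 7 of the 9 genes and the highest for the other two, IFITM2 and LGALS3BP. Among the 402 tested genes that were higher in shSTYK1 cells, it was the lowest of its group in 43.0% and the highest in 33.3%. IFI16, which is counted in the 7, was lower in shSTYK1 cells and is not among the 402. In the control group, replicate 3 was the highest for IFIT1, IFIT2, PARP14 and PLSCR1 and the lowest for IFIT3, IFITM2, IFI16 and LGALS3BP. These orders rest on 3 libraries per group and were not tested.

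The rest of the interferon pathway was taken from lists of 212 genes, of which 23 are in the table, the 9 genes included. None of 22 ligand genes and none of 6 receptor genes is in it. Of 19 signalling genes 1 is in the table, of 20 nucleic acid sensors 1, of 5 IFIT genes 3, of 5 IFITM genes 1 and of 4 PYHIN genes 1. Of 18 genes for the PARP family and DTX3L 3 are in it, of 5 scramblases 2, of 5 galectins and their binding proteins 1, of 82 further interferon-stimulated effectors 9 and of 22 antigen presentation genes 1. The common effectors MX1, OAS1 and ISG15 were among those not analysed here.

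Of the 14 list genes beyond the 9, 13 were higher in shSTYK1 cells and 1 was lower. In limma, 11 of these were past the threshold with shSTYK1 higher and 1 with shSTYK1 lower, among the 12 that passed the filter. Over all 740 genes tested the shares were 51.2% and 44.5%, so nearly every tested gene of the table was called, and nothing is read from the count. STING1, the adaptor through which cells answer cytosolic DNA, was at 2.49, 3.42 and 1.82 in control libraries, against 6.68, 6.44 and 6.58 in shSTYK1 libraries (log2 fold change 1.11 ± 0.17, SE). It thus moved opposite to IFI16, a sensor that is known to act with it. UBE2L6, one of the enzymes in the conjugation of ISG15 to proteins, was at 3.44, 4.10 and 3.76 against 9.03, 8.56 and 8.39 (1.02 ± 0.12, SE).

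Among the effectors, LAMP3, a lysosomal membrane protein, had a mean of 1.23 ± 0.296 in control and 5.04 ± 0.949 in shSTYK1 cells (SD, n = 3 each; log2 fold change 1.44 ± 0.16, SE). APOL1, an apolipoprotein of innate immunity, had means of 1.11 ± 0.165 and 4.08 ± 0.209 (1.27 ± 0.12, SE). SLFN5 had a log2 fold change of 0.92, TRIM38 of 0.62 and the cytidine deaminase APOBEC3F of 0.42. The scale compresses the differences of such low-valued genes, and as a log2 ratio between group means LAMP3 (2.04) lay above IFIT1 (1.63) and IFIT3 (1.90). IRF5, a transcription factor of the pathway, was at 0.81 and the scramblase PLSCR4 at 1.47, with control values of 0.46, 1.69 and 0.59 that were spread widely.

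APOBEC3B was the list gene that was lower, at 7.41, 7.45 and 7.57 in control and 3.11, 3.16 and 3.39 in shSTYK1 libraries (log2 fold change -1.01 ± 0.11, SE). It encodes a cytidine deaminase, as does APOBEC3F, and the pair moved in opposite directions. GBP2 and NLRC5 were below the filter. NLRC5, which drives MHC class I genes, was at 0.87, 0.62 and 0.76 in control libraries, against 0.67, 0.94 and 2.34 in shSTYK1 libraries, and it was the list gene in which the groups overlapped.

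**Figure D3:**
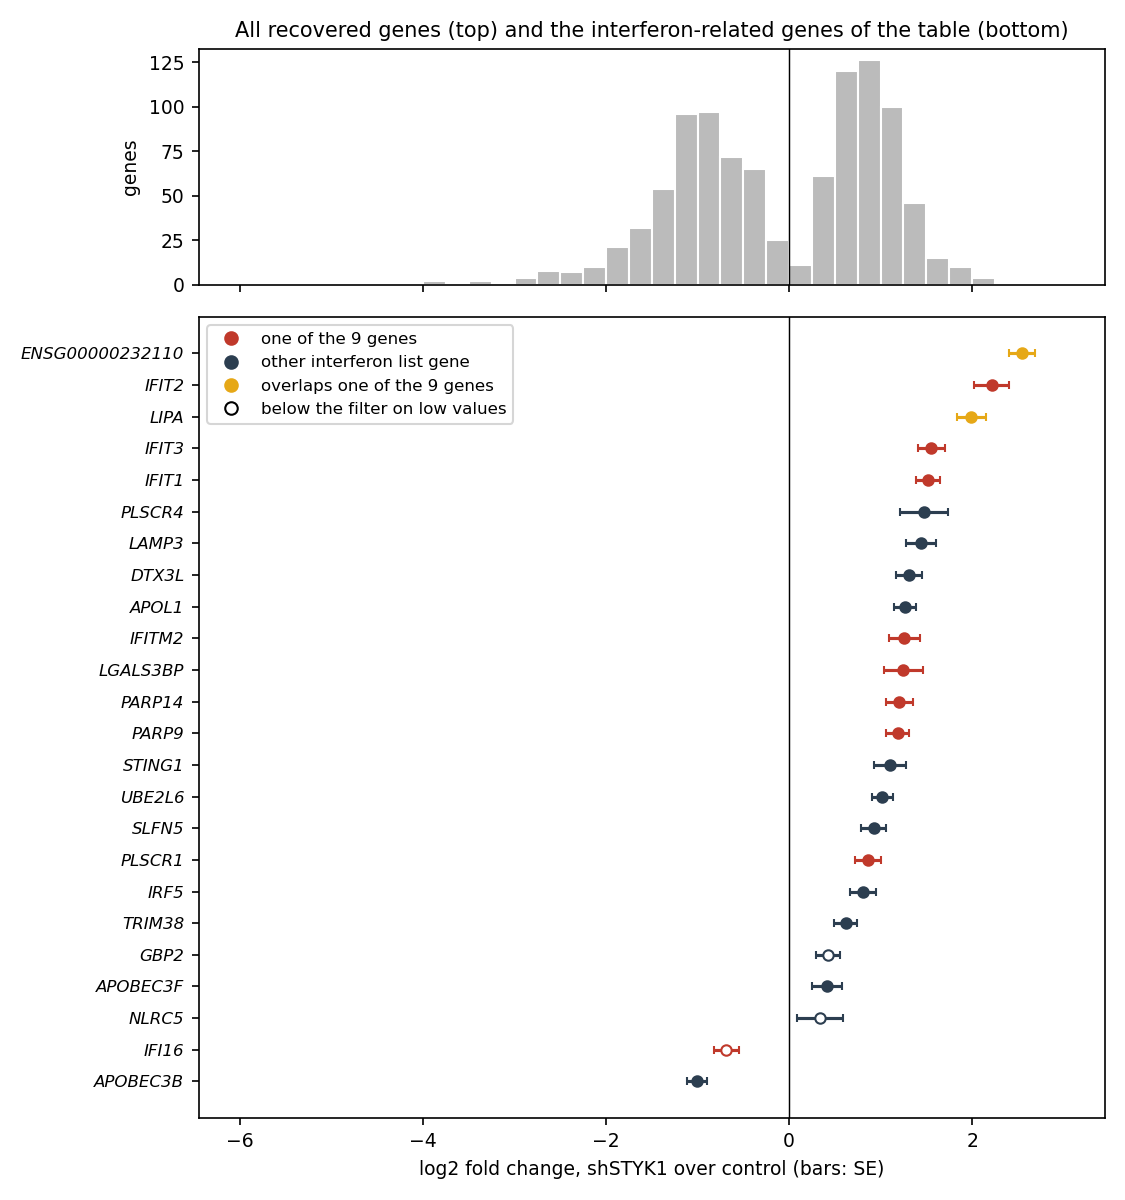
Top, number of genes (vertical axis) by log2 fold change over the 994 recovered genes. Bottom, log2 fold change with SE of the 9 genes, of 13 of the 14 other interferon list genes and of 2 genes that overlap an IFIT gene. IFI16 and APOBEC3B are the points below 0, and the table as a whole has few genes near 0.

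The table genes whose 6 z-scores came nearest to the mean profile of IFIT1, IFIT2 and IFIT3 by Euclidean distance were AS3MT (0.086), DTX3L (0.163), SLC49A4 (0.174), RBBP7 (0.174) and SDC4 (0.179). DTX3L is the only one of the 5 on the interferon lists. AS3MT, an arsenic methyltransferase, was at 0.94, 1.03 and 1.05 in control libraries, against 2.73, 2.38 and 2.79 in shSTYK1 libraries. Such a profile was common in the table, since 82 of the 986 other genes had a Pearson's r over 0.98 with it across the 6 libraries, which all share the difference between the groups.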

How the data were processed

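Control and shSTYK1 PANC-1 libraries (3 each) were grouped by their titles. The authors deposited 1 table of 995 genes, holding z-scores that were scaled per gene to mean 0 and SD 1 (divisor 6) over the 6 libraries. The submitters' processing notes name RSEM, DESeq2 and GRCh38/hg38. Versions, annotation and the unit before scaling are not given in the sources used here, and depth is unknown. The authors thus removed level and size of change, which were recovered in Python 3.11.15 (numba 0.67.0) by a search over numbers of 2 decimals, with value + 1 up to 2000, for the 6 that return the deposited scores after log(value + 1). The search solved 994 genes, with z-scores reproduced to within 1e-12. That 1 had been added before the logarithm was assumed. The lowest library came out at exactly 0 in 120 genes, against 12 at 0.01. The search took the smallest numbers with no value below 0, so a smaller added constant could also give many values of 0. These counts therefore cannot decide which constant was added. A gene's value + 1 is known up to a common whole-number factor, the smallest being used. Differences on the log2(value + 1) scale do not depend on that factor, but the values, ratios of values, other pseudocounts, scalings and filters do.

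In R 4.3.3, limma 3.58.1 (lmFit, eBayes) was run on log2(value + 1) for the 740 genes that reached 1 in 3 or more libraries, with Benjamini-Hochberg adjustment. SEs come from this fit, and that of IFI16 from the fit without the filter. The recovery and the model were tested on simulated data, and the values simulated for the recovery had the same 1 added. Gene positions and shared 150-base stretches come from GENCODE 29 (GRCh38), promoters from RefSeq. Named were the 9 genes, interferon list genes in the table, table genes that overlap the 9, and the 5 nearest profiles. The genes and lists were chosen with earlier results of these data known. Protein identities were not computed. Of the interferon list genes, 1 is counted but its values are not reported here. Plots used matplotlib 3.10.9.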

Additional observations from a re-analysis of the deposited data

How the results depend on the processing

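The direction of all 9 fold changes was the same in each of 99 alternative values, and 17 of these moved by more than the pooled SD of the replicates. As no gene's groups overlap, leaving out a library, another pseudocount or the ratio of means could not have reversed a direction. The replicate block returns the same fold change, so only median-of-ratios rescaling and quantile normalization could have reversed one. Median-of-ratios rescaling, which shifted the median log2 fold change of all tested genes by -0.25 (from 0.54 to 0.30), gave 1.14 for IFIT1, 1.84 for IFIT2, 1.22 for IFIT3, 0.86 for IFITM2, 0.83 for PARP9, 0.83 for PARP14, 0.47 for PLSCR1 and 0.85 for LGALS3BP. Both scalings were estimated on the selected genes. Quantile normalization gave 0.89 for IFITM2, 0.57 for PLSCR1 and -0.42 for IFI16. A pseudocount of 0.1 gave 1.85 for IFIT3, 1.34 for PARP9 and -2.42 for IFI16, and the log2 ratio of the group means 1.90, 1.37 and -3.89. Leaving out each library in turn gave 1.44 to 1.61 for IFIT1, 2.08 to 2.42 for IFIT2, 1.46 to 1.67 for IFIT3, 1.09 to 1.38 for IFITM2, -0.81 to -0.61 for IFI16, 1.10 to 1.25 for PARP9, 1.12 to 1.33 for PARP14, 0.76 to 0.95 for PLSCR1 and 1.07 to 1.48 for LGALS3BP. A filter of at least 5 in 3 libraries, which tests fewer genes, left 194 higher and 130 lower calls of the 379 and 329. The replicate block gave 385 higher and 329 lower calls, and same-numbered libraries did not deviate together (Pearson's r across genes -0.23, 0.19 and 0.05 for replicates 1, 2 and 3), so the numbers were not treated as pairs. The 9 genes stayed without overlap between the groups in the z-scores and under both scalings, and the list genes stayed at 21 higher and 2 lower under both scalings.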
